A study of Homo sapiens with 6 samples.

Results

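The mitochondrial ribosomal proteins were examined as the protein-coding genes whose symbols begin with MRPL or MRPS and a number, which gave 78 of the 25838 genes listed (14706 of them protein-coding). Of these, 49 carry an MRPL symbol, for the large subunit, and 29 an MRPS symbol, for the small subunit. RNA sequencing compared Sup-PR, a sub-clone with resistance to prednisolone, with Sup-B15, its sensitive parental line, each in 3 libraries. Both are lines of childhood B-cell precursor acute lymphoblastic leukaemia, neither was treated before RNA was taken, and the labels list no engineered allele. The comparison addressed which transcripts accompany acquired resistance to a glucocorticoid. With 1 parental line and 1 sub-clone, any other difference between them cannot be told apart from resistance. The libraries are described as biological triplicates, but nothing says that their cultures were kept separately, so p-values measure the spread between libraries, which may be technical.

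Mitochondrial ribosomes translate the few proteins that mitochondrial DNA encodes, all of them subunits of the respiratory chain and ATP synthase. Their rRNAs are transcribed in the organelle, whereas every protein of the ribosome is encoded in the nucleus, made in the cytosol and imported. The small subunit decodes the mRNA, and the large subunit forms peptide bonds and passes the growing chain through an exit tunnel to the inner membrane. Many of these proteins have bacterial relatives, and others are found only in mitochondria.

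Promoters of the members that the comparison turned on are shown first. The RefSeq windows (assembly GRCh38.p14) run from 250 bases before to 50 bases after the start of a transcript, and 69 of the 78 members matched at least 1 window. MRPL3 (chr3:131502922-131503221, minus strand), MRPS34 (chr16:1773085-1773384, minus strand) and MRPS30 (chr5:44808697-44808996, plus strand) were among the largest rises. MRPS33 (chr7:141014903-141015202, minus strand) was the member that fell. Capitals mark the core letters CCGGAAG (ETS factors such as GABPA), AAGATGGC (YY1) and GGGCGG (SP1), read on either strand, and each sequence is written 5′ to 3′ on the strand of its gene.
MRPL3: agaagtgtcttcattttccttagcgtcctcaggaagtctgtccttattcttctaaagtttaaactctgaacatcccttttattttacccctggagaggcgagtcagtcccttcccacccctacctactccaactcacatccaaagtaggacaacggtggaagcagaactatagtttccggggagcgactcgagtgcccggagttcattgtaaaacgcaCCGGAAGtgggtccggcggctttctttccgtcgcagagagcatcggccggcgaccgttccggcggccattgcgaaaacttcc
MRPS34: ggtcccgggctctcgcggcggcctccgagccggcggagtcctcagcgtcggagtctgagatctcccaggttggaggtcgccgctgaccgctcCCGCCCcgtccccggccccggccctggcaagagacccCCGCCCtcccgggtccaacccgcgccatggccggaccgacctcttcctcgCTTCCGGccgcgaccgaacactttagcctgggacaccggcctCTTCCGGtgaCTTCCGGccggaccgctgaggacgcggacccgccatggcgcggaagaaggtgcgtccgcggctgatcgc
MRPS30: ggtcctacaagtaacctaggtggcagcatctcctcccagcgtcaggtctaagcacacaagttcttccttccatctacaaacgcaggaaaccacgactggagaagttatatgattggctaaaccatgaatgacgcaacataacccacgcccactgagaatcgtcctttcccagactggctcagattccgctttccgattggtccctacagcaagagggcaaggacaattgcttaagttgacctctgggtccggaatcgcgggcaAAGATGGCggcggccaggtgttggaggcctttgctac
MRPS33: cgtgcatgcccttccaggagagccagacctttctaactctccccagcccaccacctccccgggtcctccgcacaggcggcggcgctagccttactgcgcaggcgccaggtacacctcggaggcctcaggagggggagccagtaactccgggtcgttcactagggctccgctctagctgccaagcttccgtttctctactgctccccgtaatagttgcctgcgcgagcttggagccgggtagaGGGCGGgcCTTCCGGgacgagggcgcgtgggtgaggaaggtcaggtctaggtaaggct

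MRPL3 had 1 ETS match, MRPS34 had 3 ETS and 2 SP1 matches, MRPS30 had 1 YY1 match, and MRPS33 had 1 ETS and 1 SP1 match in the window shown. Across the 85 windows of the members, the ETS letters were found in 38.8%, against 10.3% of all 35116 windows. Windows of the same gene can overlap and hold the same match, as in MRPL47, MRPS12 and MRPS22. By member, the ETS letters were found in 30 of 69. The full set of windows was not limited to genes tested here. The YY1 letters were found in 27.1% of the members' windows, against 2.89% of all windows. These letters include ATG. In most of the 21 members with them they lay after the transcript start, as in MRPS30 (13 bases) and MRPS10 (9 bases). In MRPL36 (35 bases), MRPL47, MRPL32, MRPL52 and MRPS12 they lay before it. Whether they hold start codons was not tested. For SP1 the shares were 60.0% of the members' windows and 45.0% of all windows, for NRF1 (GCATGCGC) 7.06% and 3.05%, and for the E-box (CACGTG) 10.6% and 7.26%. Matches of different motifs overlapped in 1 of the members' windows, and a match is a run of letters, not a bound site. The members' windows had a median GC content of 60.3%, against 58.7% for all windows.

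**Figure D1:**
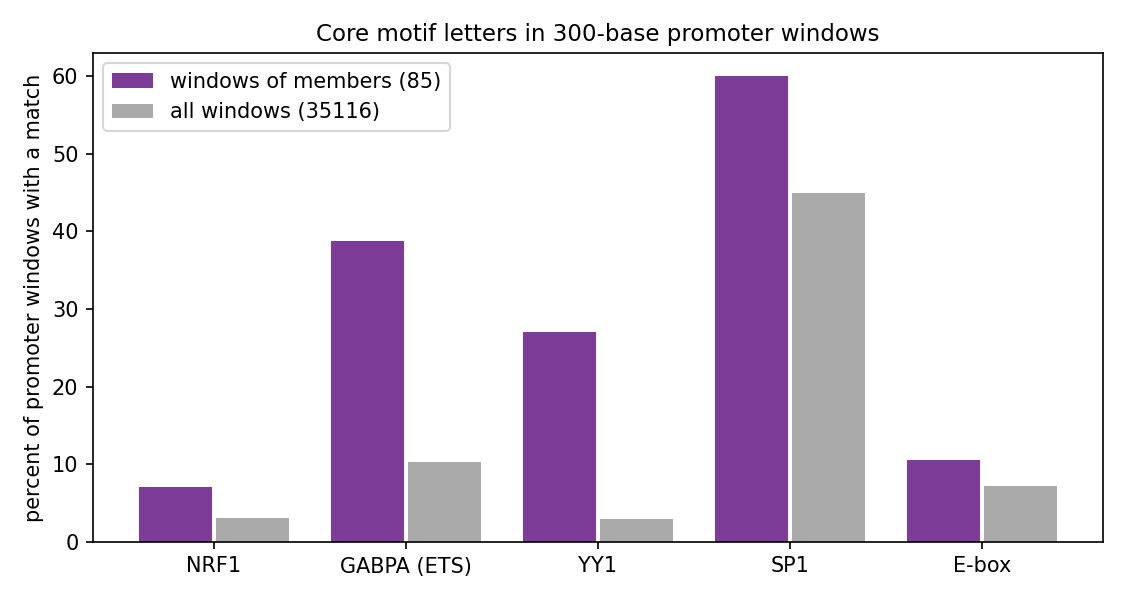
Share of promoter windows (percent, vertical axis) that hold the core letters of each motif on either strand, for the 85 windows of the members (purple) and all 35116 windows (grey). The ETS and YY1 bars of the members stand at 38.8% and 27.1%, beside 10.3% and 2.89% for all windows.

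The median log2 fold change was 0.30 for the 30 members with the ETS letters and 0.42 for the 38 without. For YY1 it was 0.41 in 20 members with the letters and 0.37 in 48 without. For SP1 it was 0.36 in 41 members with the letters and 0.37 in 27 without. For NRF1 it was 0.28 in 6 with and 0.37 in 62 without, and for the E-box 0.35 in 9 with and 0.39 in 59 without. These medians are descriptions and were not tested.

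The 6 libraries held 16966569 to 26603422 counts, with 20681 to 22856 genes detected in each. All 16 precursor B cell markers examined were at 1 CPM or more in both lines. Of these, 1 was higher and 10 were lower in Sup-PR, beside 28% and 27.4% of all genes tested. CPM are read counts scaled to the size of the library, after TMM normalisation. Summed levels of T cell markers were 9.29 to 13.8 CPM in Sup-PR and 46.9 to 53.7 CPM in Sup-B15, and those of myeloid markers were 6.43 to 8.79 CPM in Sup-PR and 16.8 to 24.8 CPM in Sup-B15. NK cell markers summed to 22.7 to 23.9 CPM in Sup-PR and 52.9 to 60.6 CPM in Sup-B15, and erythroid markers to 0 to 0.251 CPM in Sup-PR and 0.326 to 0.368 CPM in Sup-B15. TRAC made up nearly all of the T cell sum, at means of 12.07 CPM in Sup-PR and 49.83 CPM in Sup-B15. NKG7 made up nearly all of the NK cell sum, at means of 23.05 CPM in Sup-PR and 55.09 CPM in Sup-B15. The other markers of these lists in the table, CD5, CD8A, PRF1 and NCAM1, were under 1 CPM in both lines. Of these lists 3 of 8 T cell, 6 of 8 myeloid, 3 of 5 NK cell and 2 of 5 erythroid markers were in the table, none of them at 0 in all 6 libraries, and their part in the results was not tested. In bulk RNA, fewer cells of a kind and less RNA per cell cannot be told apart.

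Most members were higher in the resistant line. Of the 77 members that passed the filter on low counts, 58 rose in Sup-PR, 1 fell and 18 did not pass the test (adjusted p under 0.05, edgeR's quasi-likelihood test, Benjamini-Hochberg over 14869 genes). Over all genes tested, 28% rose and 27.4% fell, and over protein-coding genes tested 32.3% rose and 27.9% fell. The median log2 fold change of the members was 0.39, with quartiles of 0.20 and 0.51, beside −0.01 for all genes tested and 0.02 for all protein-coding genes tested. The changes were small: 9 members rose and 1 fell by more than 1.5-fold, beside 7.53% and 15.4% of all genes. In 54 members every Sup-PR library lay above every Sup-B15 library, and in 3 every Sup-PR library lay below, beside 30.8% and 30.3% of all genes. MRPL20, MRPL27, MRPL54 and MRPS17 rose although their libraries overlapped, and they passed in 12, 7, 17 and 9 of 19 fits. Of the 18 members that did not pass, 12 had a fold change above 0.

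**Figure D2:**
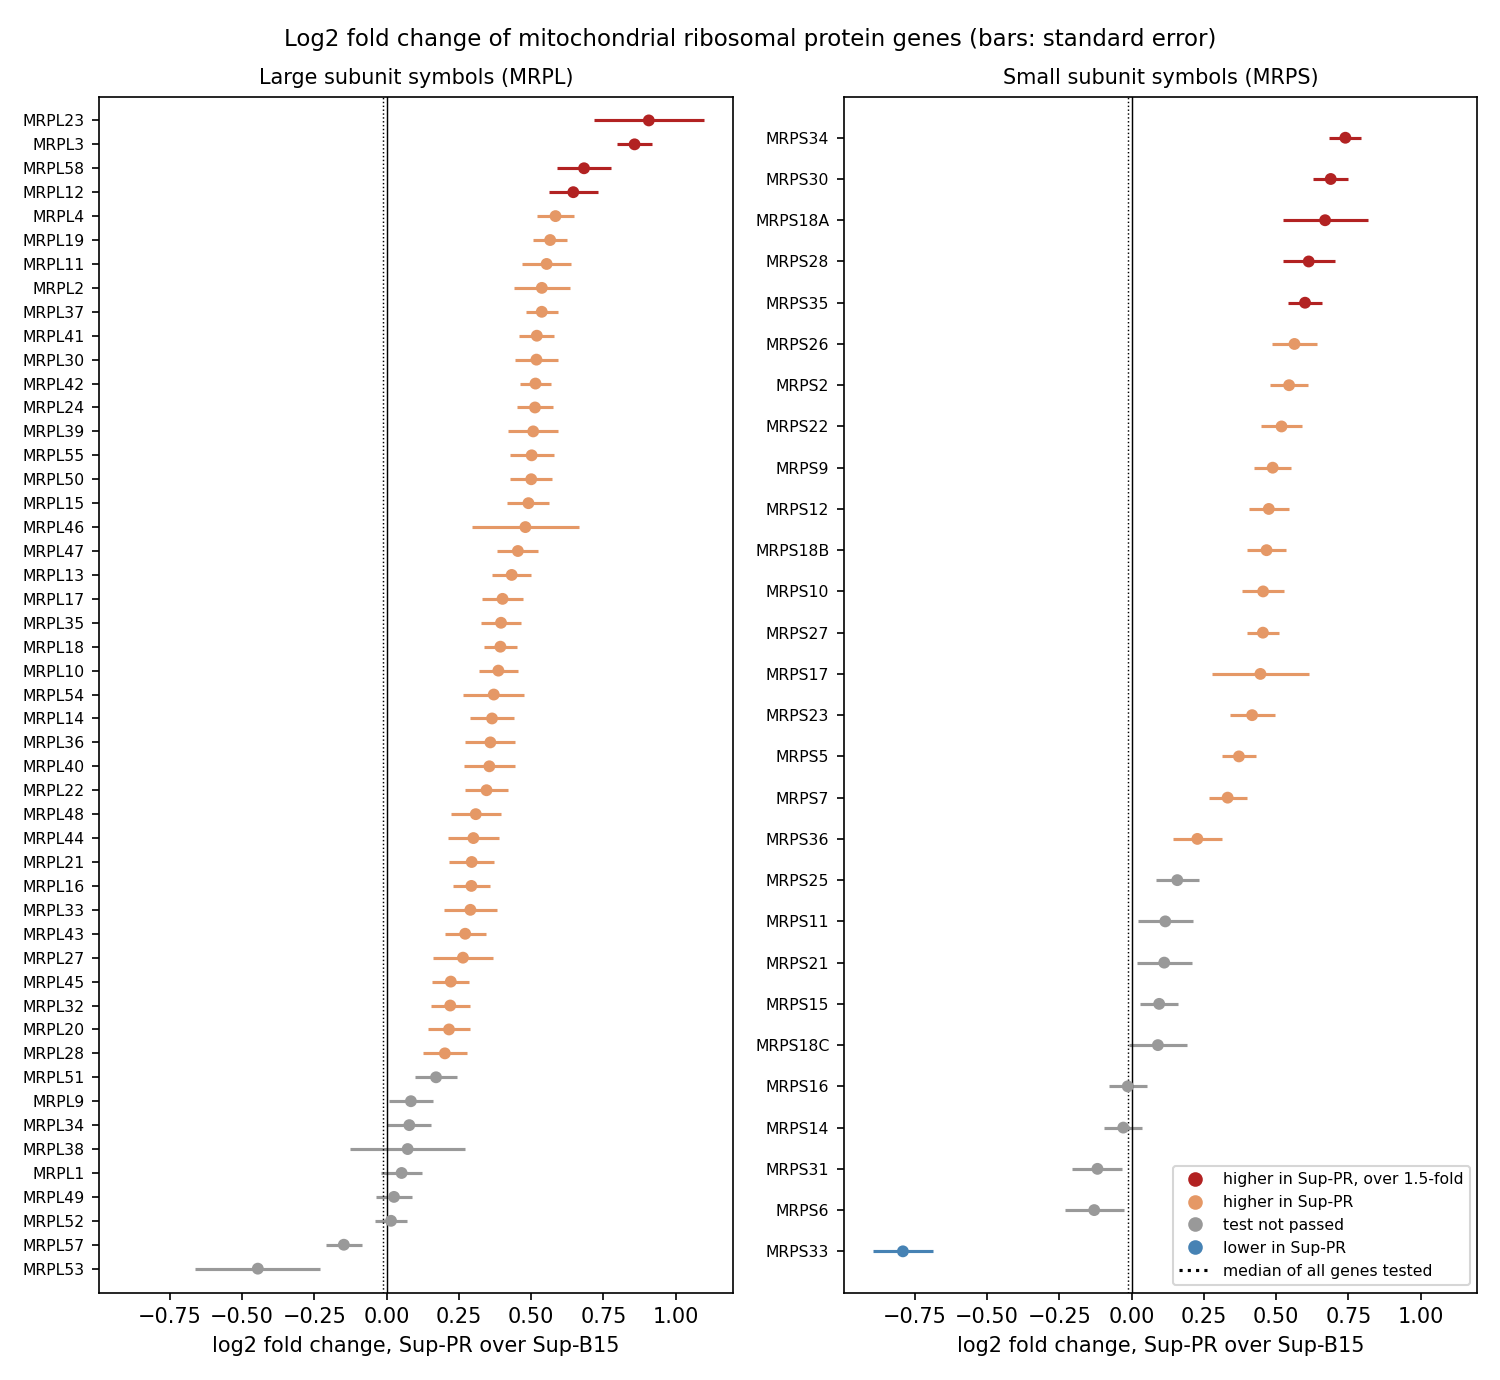
Log2 fold change of Sup-PR over Sup-B15 (horizontal axis) for 49 MRPL genes (left) and 28 MRPS genes (right), with the standard error as a bar. The points lie to the right of the dotted median of all genes for most members, with MRPS33 alone in blue at −0.79.

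As a sum, the members made up 3795, 3964 and 4041 CPM in the Sup-PR libraries, against 2897, 2934 and 3215 CPM in the Sup-B15 libraries. The lines did not overlap, and the mean of 3933 ± 126 CPM in Sup-PR was 1.30 times the 3015 ± 174 CPM in Sup-B15 (SD, n = 3 each). Members took 0.384% of all counts in Sup-PR and 0.308% in Sup-B15. Within the lines, the libraries differed for many members at once: Sup-PR replicate 1 had the lowest value of its line for 57 of 78 members, and Sup-B15 replicate 3 had the highest of its line for 57. These were the libraries of each line nearest to the other line. Without Sup-PR replicate 1, 59 members rose, and without Sup-B15 replicate 3, 58 did.

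**Figure D3:**
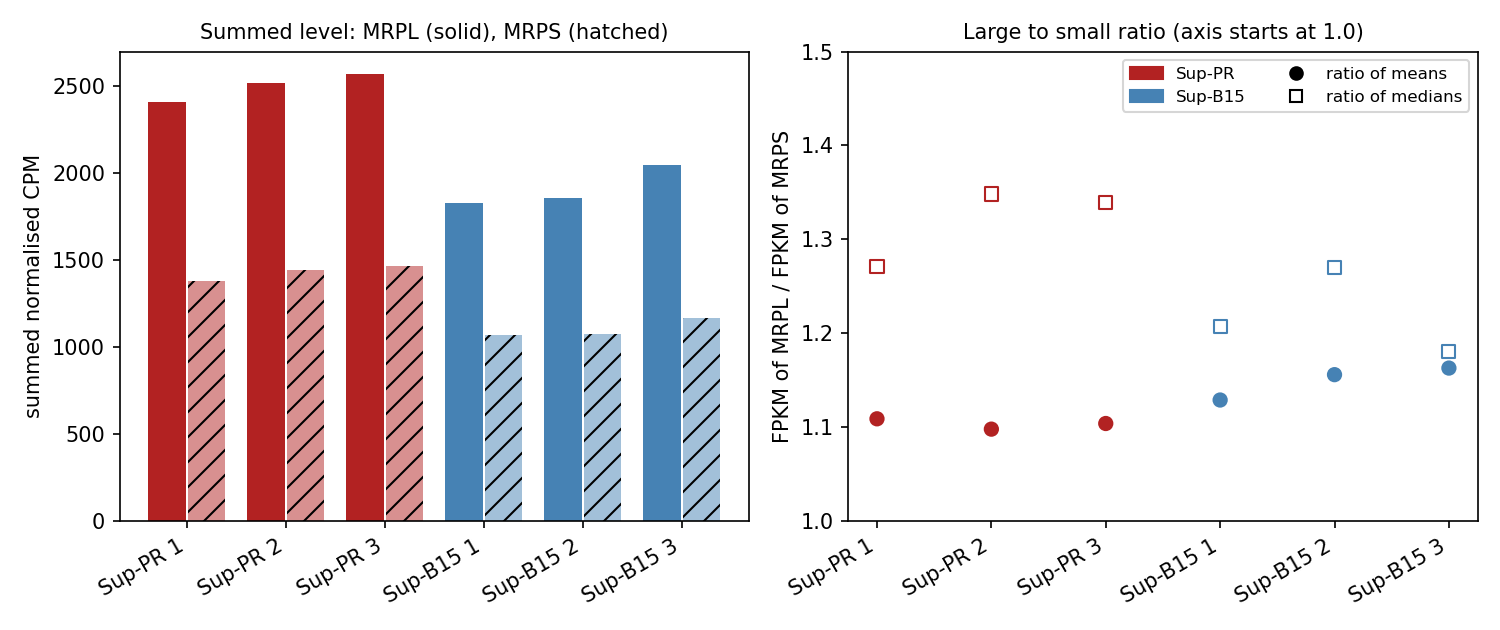
Left, summed CPM of MRPL genes (solid) and MRPS genes (hatched) in each library. Right, FPKM of MRPL genes divided by that of MRPS genes, as a ratio of means (filled circles) and of medians (open squares), on an axis that starts at 1.0. Sums are higher in all 3 Sup-PR libraries (red) than in the Sup-B15 libraries (blue), whereas the ratio of means is lower in Sup-PR and the ratio of medians is level with Sup-B15 or higher.

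The large and small subunits moved in the same direction. Among all protein-coding genes tested, 32.3% rose and 27.9% fell. Of 49 large-subunit members 40 rose and 0 fell in the edgeR fit, and of 28 small-subunit members tested 18 rose and MRPS33 fell. Their medians were 0.37 for the large and 0.43 for the small subunit on the log2 scale, and the difference between subunits was not tested. DESeq2 and limma-voom also gave 0 large-subunit members lower, and 1, MRPL57, was lower at an unadjusted p under 0.05 in edgeR. Summed levels of large-subunit members were 2411, 2518 and 2571 CPM in Sup-PR, against 1829, 1860 and 2050 CPM in Sup-B15. Those of small-subunit members were 1383, 1446 and 1469 CPM in Sup-PR, against 1068, 1074 and 1165 CPM in Sup-B15. In neither subunit did the lines overlap.

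The balance of the subunits had no direction that held across measures. FPKM, as deposited, divide the counts also by the exonic length of the gene. The mean FPKM of large-subunit members divided by that of small-subunit members was 1.109, 1.098 and 1.104 in Sup-PR and 1.129, 1.156 and 1.163 in Sup-B15. By this measure every Sup-PR library was below every Sup-B15 library. The ratio of median FPKM was 1.271, 1.348 and 1.339 in Sup-PR and 1.208, 1.270 and 1.180 in Sup-B15, so that by this measure no Sup-PR library was below a Sup-B15 library and the nearest pair was level. The ratio of summed CPM was 1.743, 1.741 and 1.750 in Sup-PR and 1.713, 1.732 and 1.760 in Sup-B15, and the lines overlapped. None of these ratios was tested.

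Symbols do not always name the place of the protein. MRPS30 (mL65) and MRPS18A (mL66) sit in the large subunit of the assembled ribosome, and MRPS36 is now known as a component of the oxoglutarate dehydrogenase complex. Counted by structure, 42 of 51 large-subunit members rose, 6 of them by more than 1.5-fold, with a median of 0.39. Of 25 small-subunit members tested 15 rose and 1 fell (median 0.42), beside 32.3% and 27.9% of protein-coding genes tested. By more than 1.5-fold, 3 of the 25 small-subunit members rose, beside 7.53% of all genes. MRPS36 rose, with a log2 fold change of 0.23 (SE 0.08, edgeR adjusted p = 0.034). It passed the test in 9 of 19 fits.

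Members of both origins rose. Origin here follows the systematic name of each protein. Of 45 members named for a bacterial homologue 35 rose (median 0.39), and of 31 named as mitochondrion-specific 22 rose and 1 fell (median 0.42). By name, MRPS18A (mL66) and MRPS18B (mS40) are among the 31, although their paralogue MRPS18C (bS18m) is of bacterial type. By subunit, bacterial-type members rose in 27 of 30 in the large and 8 of 15 in the small subunit. Mitochondrion-specific members rose in 15 of 21 in the large and 7 of 10 in the small subunit. For protein-coding genes tested the shares were 32.3% higher and 27.9% lower.

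The 9 members past 1.5-fold were spread over both subunits. In the deposited coordinates (GRCh38) MRPL3 spans chr3:131462212-131502983, MRPL23 chr11:1947278-1984522, MRPS34 chr16:1771890-1773155 and MRPS33, the member that fell, chr7:141002610-141015228. MRPL3 (uL3m), which lies near the peptidyl transferase centre in bacteria, was at 157, 158 and 167 CPM in Sup-PR, against 84.5, 85.8 and 96.1 CPM in Sup-B15. The lowest Sup-PR library stood far above the highest Sup-B15 library. The log2 fold change was 0.86 (SE 0.06, edgeR adjusted p = 5.7e-08), the smallest adjusted p of the members.

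MRPL23 (uL23m), a protein at the mouth of the exit tunnel, was at 24.3, 26.4 and 39.7 CPM in Sup-PR, against 14.3, 18.6 and 14.9 CPM in Sup-B15. Sup-PR replicate 3 was higher than the other libraries of its line, and the lines did not overlap. Its log2 fold change of 0.91 was the largest (SE 0.19, edgeR adjusted p = 0.0033). Without Sup-B15 replicate 3 it was 0.84 with an adjusted p of 0.057, and without Sup-PR replicate 3 it was 0.65.

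MRPS34, a small-subunit protein needed for stability of that subunit, was at 126, 137 and 139 CPM in Sup-PR, against 79.5, 78.8 and 82.7 CPM in Sup-B15. The libraries within each line lay close together. The log2 fold change was 0.74 (SE 0.06, edgeR adjusted p = 1.1e-07). Against a null of a 1.5-fold change, with edgeR's glmTreat, MRPL3 and MRPS34 were the only 2 members that passed. Of the 14869 genes in that fit, 484 passed as higher and 1318 as lower.

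MRPS30, placed in the large subunit, was at 63.9, 63.6 and 68.7 CPM in Sup-PR, against 42.2, 40.4 and 39.2 CPM in Sup-B15 (log2 fold change 0.69, edgeR adjusted p = 6.3e-07). MRPL58 is an enzyme that hydrolyses peptidyl-tRNA on stalled ribosomes and is built into the central protuberance. It was at 23.41, 26.64 and 28.97 CPM in Sup-PR, against 16.0, 17.4 and 15.8 CPM in Sup-B15 (log2 fold change 0.68, edgeR adjusted p = 3.1e-05). In neither gene did the lines overlap.

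MRPL12 forms the stalk that recruits translation factors. It was at 27.7, 28.4 and 31.9 CPM in Sup-PR, against 17.9, 18.1 and 20.4 CPM in Sup-B15 (log2 fold change 0.65, edgeR adjusted p = 2.5e-05). MRPS28 (bS1m) was at 26.0, 26.6 and 25.7 CPM in Sup-PR, against 18.8, 15.1 and 17.6 CPM in Sup-B15 (log2 fold change 0.61, edgeR adjusted p = 5.8e-05). Both genes share exonic bases on the same strand with another annotated gene, 68.2% of MRPL12 and 35.8% of MRPS28, so their counts are uncertain.

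MRPS35 was at 104, 113 and 114 CPM in Sup-PR, against 69.6, 74.8 and 73.8 CPM in Sup-B15 (log2 fold change 0.60, edgeR adjusted p = 1.4e-06). MRPL4, MRPL19 and MRPS26 followed just under the fold limit, with log2 fold changes of 0.58, 0.57 and 0.56. In none of these 4 genes did the lines overlap.

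Several abundant members rose by less. MRPL37 was at 133, 134 and 134 CPM in Sup-PR, against 88.4, 89.6 and 98.5 CPM in Sup-B15 (log2 fold change 0.54, edgeR adjusted p = 2.4e-06). MRPL42 was at 124, 128 and 133 CPM in Sup-PR, against 88.4, 86.8 and 94.7 CPM in Sup-B15 (log2 fold change 0.51, edgeR adjusted p = 3.3e-06). The lines were apart in both of these mitochondrion-specific proteins of the large subunit. MRPS27, a small-subunit protein with pentatricopeptide repeats, was at 117.3, 121.5 and 123.8 CPM in Sup-PR, against 91.1, 83.0 and 90.9 CPM in Sup-B15 (log2 fold change 0.45, edgeR adjusted p = 1.2e-05). Among all members that rose, the smallest log2 fold change was the 0.20 of MRPL28, which passed in 9 of 19 fits.

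**Figure D4:**
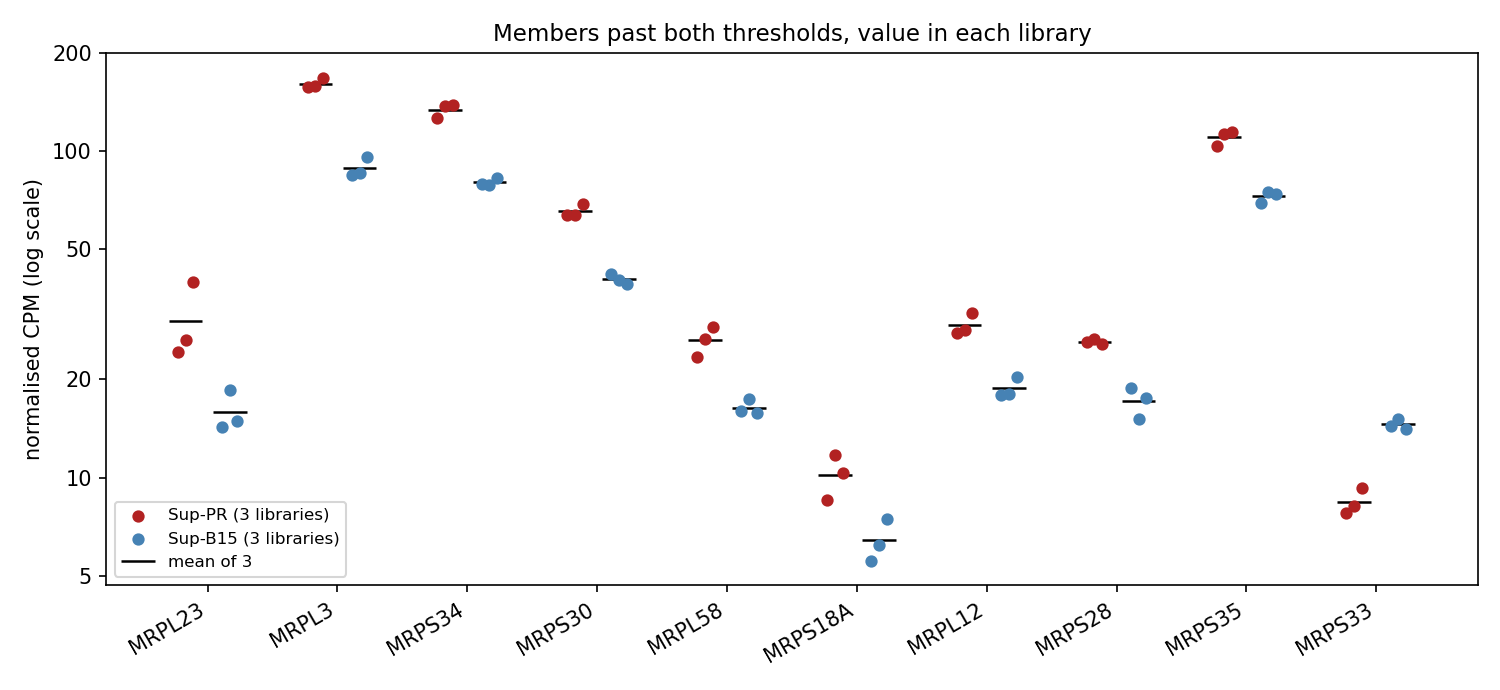
CPM in each library (log axis) of the 9 members that rose by more than 1.5-fold and of MRPS33, with Sup-PR in red to the left of Sup-B15 in blue and the mean of 3 libraries as a line. Every pair of lines is separated, and MRPS33 is the pair in which Sup-PR is lower.

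The MRPS18 family holds 3 paralogues, of which a given ribosome carries each at a different place. MRPS18A was at 8.54, 11.7 and 10.3 CPM in Sup-PR, against 5.56, 6.24 and 7.47 CPM in Sup-B15 (log2 fold change 0.67, edgeR adjusted p = 0.0016). MRPS18B rose by 0.47 on the log2 scale (edgeR adjusted p = 5.7e-05). MRPS18C, with 19.2, 16.4 and 16.8 CPM in Sup-PR and 15.1, 15.8 and 18.2 CPM in Sup-B15, had a log2 fold change of 0.09 (edgeR adjusted p = 0.46). The lines overlapped only in the last of the 3. Exons of MRPS18A share 47.0% and those of MRPS18C 40.2% of their bases with a gene on the opposite strand, and whether counting used strand is not given in the sources used here. The same limit holds for 16 members with at least 10% shared in this way, among them MRPL51 (31.3%) and MRPL4 (21.4%).

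MRPS33, a mitochondrion-specific protein of the small subunit, was the only member that fell. It was at 7.79, 8.17 and 9.27 CPM in Sup-PR, against 14.4, 15.1 and 14.1 CPM in Sup-B15. Every Sup-PR library was below every Sup-B15 library. The log2 fold change was −0.79 (SE 0.10, edgeR adjusted p = 2.3e-05), and MRPS33 was lower in all 19 fits compared. It did not pass glmTreat at 1.5-fold. No exonic base of MRPS33 is shared with another gene.

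Other members also leaned the same way without passing, and MRPL57 and MRPL53 had the lowest log2 fold changes among them. MRPL57 (mL63) was at 54.7, 57.2 and 61.2 CPM in Sup-PR, against 61.9, 63.5 and 66.5 CPM in Sup-B15, a log2 fold change of −0.15 (edgeR adjusted p = 0.055). The lines did not overlap, and MRPL57 passed in 6 of 19 fits. MRPL53 was at 3.01, 2.35 and 2.51 CPM in Sup-PR, against 3.84, 2.68 and 4.31 CPM in Sup-B15 (log2 fold change −0.45, edgeR adjusted p = 0.097), and 45.2% of its exonic bases are shared with CCDC142.

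Structural groups are set beside the 32.3% of protein-coding genes tested that rose. By place in the large subunit, the stalk members MRPL10, MRPL11 and MRPL12 all rose (median 0.55), as did the 5 exit tunnel members MRPL22, MRPL23, MRPL24, MRPL45 and MRPL47 (median 0.45). Of the 7 members of the central protuberance 6 rose (median 0.36): MRPL18, MRPL27, MRPL40, MRPL46, MRPL48 and MRPL58. MRPL38 was the exception at 4.72, 3.69 and 2.82 CPM in Sup-PR and 3.78, 3.55 and 3.31 CPM in Sup-B15 (log2 fold change 0.07, edgeR adjusted p = 0.78). Its counts are uncertain, since it shares 37.5% of its exonic bases on the same strand with another annotated gene. Log2 fold changes were 0.39 for MRPL10 and 0.55 for MRPL11, then 0.35 for MRPL22, 0.51 for MRPL24, 0.22 for MRPL45 and 0.45 for MRPL47. In the protuberance they were 0.39 for MRPL18, 0.26 for MRPL27, 0.36 for MRPL40, 0.48 for MRPL46 and 0.31 for MRPL48. MRPL27, at 27.07, 27.95 and 29.64 CPM in Sup-PR and 19.99, 22.52 and 28.04 CPM in Sup-B15, passed in 7 of 19 fits, and MRPL46 in 6 of 17. MRPL11, which with MRPL10 holds the stalk to the ribosome, was at 87.9, 103 and 112 CPM in Sup-PR, against 64.8, 66.2 and 75.4 CPM in Sup-B15.

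The members nearest to no change were MRPS16, MRPL52 and MRPL49. MRPS16 (bS16m) was at 94.4, 100.1 and 96.3 CPM in Sup-PR, against 89.6, 96.6 and 107 CPM in Sup-B15, a log2 fold change of −0.01 (edgeR adjusted p = 0.88). MRPL52 had 0.02 and MRPL49 0.03 on the same scale, with adjusted p of 0.84 and 0.76 in the edgeR fit. The lines overlapped in all 3. The other members that did not pass and are not described elsewhere lay between −0.13 for MRPS6 and 0.17 for MRPL51, and MRPS31, at −0.12, was lower in every Sup-PR library than in any Sup-B15 library.

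Levels per length spanned a wide range. MRPS34 was the highest at 122 ± 7.39 FPKM in Sup-PR and 72.5 ± 1.76 FPKM in Sup-B15 (SD, n = 3 each). By the mean of both lines MRPS26, MRPL51, MRPL15 and MRPS35 came next, with 72.1, 62.4, 63.4 and 55.6 FPKM in Sup-PR and 48.6, 55.2, 44.8 and 36.4 FPKM in Sup-B15. At the low end stood MRPL46, at 0.4998 FPKM in Sup-PR and 0.3565 FPKM in Sup-B15, and MRPL38, at 1.02 FPKM in Sup-PR and 0.959 FPKM in Sup-B15. MRPL38 shares 37.5% and MRPL46 11.3% of exonic bases on the same strand with another annotated gene, so their levels are uncertain.

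MRPS24 (uS3m) failed the count filter, with 6, 2 and 3 counts in the Sup-PR libraries and 3, 4 and 2 counts in the Sup-B15 libraries. It shares 23.2% of its exonic bases on the same strand with the readthrough gene URGCP-MRPS24, which was not analysed here. No fold is given at these counts.

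**Figure D5:**
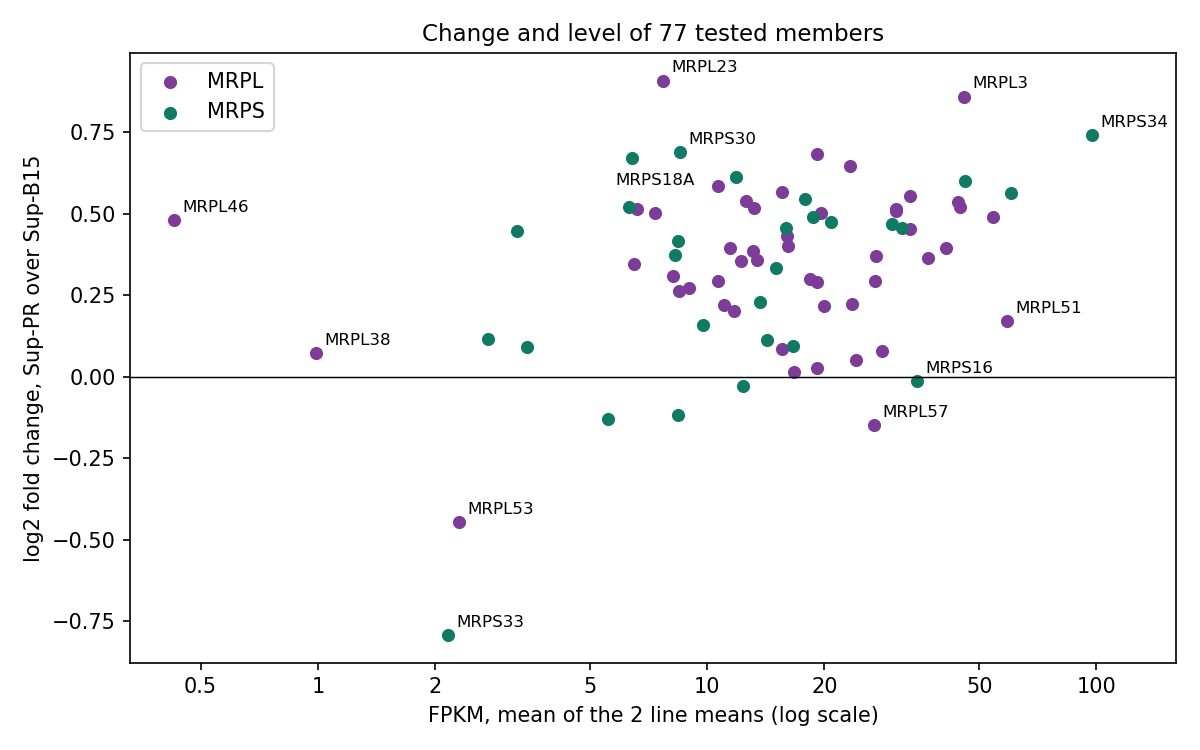
Log2 fold change of Sup-PR over Sup-B15 (vertical axis) against the mean FPKM of both lines (log axis) for the 77 tested members, MRPL in purple and MRPS in green. MRPL3 and MRPS34 are both high and much raised, whereas MRPS33 and MRPL53 lie low on both axes.

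The levels per length were in a similar order in both lines (Pearson r = 0.981, Spearman rho = 0.979 over 77 genes of the same libraries, as a description). Change and level were weakly related among members (r = 0.325, rho = 0.233) and likewise over all 14869 genes tested (r = 0.272, rho = 0.307). Change and length gave r = −0.118 among members. The members lie on 21 chromosomes, and their change set against the median change of their chromosome gave r = −0.001 and rho = 0.004.

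Other genes of the mitochondrial ribosome moved in the same direction. All 5 subunits without an MRP symbol rose, beside 32.3% of protein-coding genes tested, with a median log2 fold change of 0.31. GADD45GIP1 (mL64) was at 63.8, 71.9 and 72.8 CPM in Sup-PR, against 44.5, 43.2 and 47.7 CPM in Sup-B15 (log2 fold change 0.63, edgeR adjusted p = 4.1e-06). DAP3, AURKAIP1, CHCHD1 and PTCD3 had log2 fold changes of 0.34, 0.31, 0.30 and 0.29.

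Of 27 genes for assembly of the ribosome and modification of its rRNA, 16 rose and 2 fell, with a median of 0.23. Shares over protein-coding genes tested were 32.3% higher and 27.9% lower. C1QBP, a matrix protein, MRM3, which methylates the 16S rRNA, MALSU1, a large-subunit assembly factor, and FASTKD2, which binds the 16S rRNA, rose by 0.83, 0.78, 0.71 and 0.66 on the log2 scale. RCC1L, also an assembly factor, was at 13.7, 12.9 and 13.2 CPM in Sup-PR, against 23.2, 21.5 and 24.4 CPM in Sup-B15 (log2 fold change −0.79, edgeR adjusted p = 4e-06). Of 17 translation factors 11 rose and 2 fell, beside the same shares, with a median of 0.36. LRPPRC, which stabilises mitochondrial mRNAs, and TUFM, the elongation factor that brings tRNA to the ribosome, rose by 0.74 and 0.66.

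The rRNAs of the organelle did not rise. MT-RNR2, the 16S rRNA of the large subunit, was at 691, 781 and 892 CPM in Sup-PR, against 1623, 1305 and 1844 CPM in Sup-B15, a log2 fold change of −1.01 (edgeR adjusted p = 0.00016). Every Sup-PR library was lower than every Sup-B15 library. MT-RNR1, the 12S rRNA of the small subunit, was at 259, 285 and 319 CPM in Sup-PR and 347, 268 and 392 CPM in Sup-B15, a log2 fold change of −0.22 (edgeR adjusted p = 0.22). The lines overlapped for this gene. How RNA was selected for the libraries is not given in the sources used here.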

How the data were processed

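RNA from 3 Sup-PR and 3 Sup-B15 libraries was sequenced from paired ends with a NEBNext Ultra kit. Per the labels and the study's methods, reads were mapped with HISAT2 to GRCh38.p12; no source used here gives versions, the counting program or its strand setting. The authors deposited raw counts per gene and FPKM, together with scaled counts, line means and their own fold changes and p-values, which were not used. No column of used values was left unmapped (0). Coordinates and lengths of all 78 members equalled GENCODE release 29.

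The counts were filtered with filterByExpr, scaled by TMM and tested with edgeR 4.0.16 in R 4.3.3 (glmQLFit and glmQLFTest, robust), and p-values were adjusted by Benjamini-Hochberg over 14869 genes. A member was called at an adjusted p under 0.05, also with a fold over 1.5. The fit was checked on simulated counts with a common dispersion and changes of 1.5-fold or more, so the check did not cover smaller changes. The members and lists were chosen with earlier results of these data known. The members named with values were the 12 largest rises without overlap, all that fell, the extremes of level, those nearest 0, those that failed the filter, the MRPS18 family, MRPS30, MRPS36 and the structural groups; MRPL37, MRPL42, MRPL53, MRPL57, MRPS27, MRPS31 and MRPS6 were added after their values were seen. Alternatives used DESeq2 1.42.0, limma 3.58.1 (voom, or log2 of FPKM plus 1 or 0.1, keeping genes that reached 1 FPKM in 3 libraries, or all genes), other scalings and count filters, glmTreat, the replicate number as a block, and each library left out. Motifs and exons were read with Python 3.11.15.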

Additional observations from a re-analysis of the deposited data

How the results depend on the processing

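All 58 members that rose kept a fold change above 0 in the fits compared, and 45 of them passed in every such fit. The count of members that rose ranged 48 to 59, and 49 to 59 with a library left out. A second member fell, to give 2, under a minimum of 10 counts in every library, protein-coding genes only, the replicate block, total count scaling and upper quartile scaling (MRPL57 in each), and 1 to 2 fell with a library left out (MRPL57 without Sup-PR replicate 3, MRPL53 without Sup-B15 replicate 2). Past 1.5-fold, edgeR's glmTreat gave 2 members higher and 0 lower (9 and 1 as reported; MRPS33 was lower there at an unadjusted p under 0.05), log2(FPKM + 1) gave 0 lower with and without its filter, since the pseudocount shrinks low genes, and leaving out a library gave 1 to 2 lower. The large-subunit median was 0.30 under total count scaling. The small-subunit median was 0.36 under total count scaling, 0.37 under upper quartile scaling, 0.37 under log2(FPKM + 1), 0.35 without that filter, and 0.35 to 0.47 with a library left out. The causes were not tested. Over all genes, higher past 1.5-fold numbered 484 with glmTreat, 631 with log2(FPKM + 1) and 661 without its filter; lower numbered 1318, 943 and 1093, and 1290 with log2(FPKM + 0.1).

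Whether same-numbered libraries of the lines were handled together is not given in the sources used here. Deviations of same-numbered libraries correlated at 0.188, −0.0768 and 0.25. Not every library correlated best with its own number: Sup-B15 replicate 2 did so with Sup-PR replicate 1 (0.181). Over all genes, 4549 were higher and 4503 lower with the replicate block, beside 4168 and 4069 as reported. A shared batch was not tested. With the replicate block 59 members rose and 2 fell. Of the 58, 13 lost the call in at least 1 fit. MRPL46 passed in 6 of 17 fits, and of 19 fits MRPL27 passed in 7, MRPL28, MRPS17 and MRPS36 in 9, MRPL20 in 12, MRPL33 in 15, MRPL32, MRPL44 and MRPL45 in 16, MRPL54 in 17, and MRPL23 and MRPL48 in 18. MRPL51 gained a call in 4 fits, MRPS25 in 2 and MRPS21 in 1. MRPL45 and MRPS31 have transcribed pseudogenes with counts of 5.80% to 7.86% of the parent's.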
